A study of Mus musculus with 15 samples.

Results

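The proteasome is the barrel-shaped protease that degrades most ubiquitin-tagged proteins in the cytosol and nucleus of mouse cells. The genes for its constitutive subunits, for 3 chaperones of its assembly and for 4 activators were described here across 5 groups of RAW264.7 macrophages. Members were the genes whose symbol is Psma1 to Psma8, Psmb1 to Psmb7, Psmc1 to Psmc6, Psmd with a number, or Psme1 to Psme4, on probe sets that the platform table gives exactly 1 symbol. This found 38 of 22180 genes, each represented by the probe set with the highest mean over all 15 arrays. RefSeq holds 39 coding genes with such symbols. The remaining gene, Psma4, shares its probe sets with another gene's symbol and was left out. Counts by part of the particle cover members only, and subunits with other symbols are not among them.

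The 20S core is a stack of 4 rings. The outer alpha rings gate the entrance, and the inner beta rings carry the catalytic sites. The 19S regulatory particle caps the core. Its base holds a ring of ATPases that unfold and thread the substrate, and its lid removes ubiquitin. Other caps, the PA28 and PA200 activators, open the core without ubiquitin recognition. In macrophages, interferon and inflammatory signals are known to replace the catalytic beta subunits by the immunoproteasome subunits Psmb8, Psmb9 and Psmb10. These feed peptide supply for MHC class I and are not members.

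RAW264.7 is a mouse macrophage line, and total RNA was hybridised to 15 Affymetrix arrays, 3 in each group. All cells were kept in 0.1% ethanol. The groups were cells without LPS that received vehicle and PBS, and cells given LPS, a bacterial endotoxin, at 1.0 µg/mL. A preincubation of 30 min came first in all groups. In the LPS groups it was in vehicle alone, in 13-HDHEA or 16-HDHEA at 5.0 µM, or in a mixture with 2.5 µM of each. These compounds are hydroxylated docosahexaenoyl ethanolamides, positional isomers that differ in the carbon bearing the hydroxyl group. RNA was taken at 24 h. The study ran as 3 experiments, and a replicate number stands for one of them. All groups are 1 cell line, so replicates are repeat cultures and not animals.

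Values are log2 expression after RMA. The median probe set of an array read 3.62 to 3.69. The 9 macrophage markers found on the array lay above the 40th percentile on all 15 arrays. With LPS and vehicle 4 of them were called higher and 1 lower, and their summed level went from 14.22 to 14.35 up to 14.37 to 14.50. Adgre1 went from 6.04 to 10.54, Fcgr1 from 9.48 to 11.05, Mertk from 6.53 to 7.90 and Cd14 from 11.17 to 11.47. Csf1r fell from 11.61 to 11.37, and Cd68, Itgam, Lyz2 and Spi1 were not called. The markers of other cell types that lay above the 40th percentile on all 15 arrays were fewer. They were 3 of 6 fibroblast, 1 of 5 lymphocyte, 1 of 6 neutrophil and 4 of 6 epithelial and endothelial genes. On the log2 scale the summed level of the 5 proliferation markers fell from 13.18 to 13.24 without LPS to 11.67 to 11.89 with LPS and vehicle, and all 5 passed as lower. The neutrophil sum went from 5.46 to 5.85 up to 6.14 to 6.66, with S100a8 and Mmp8 called higher. The fibroblast sum went from 5.96 to 6.29 up to 6.44 to 6.60, with Pdgfra called higher. The lymphocyte sum lay between 5.10 and 5.30 without LPS and between 5.18 and 5.39 with it. Of the epithelial and endothelial genes, Cdh5 was called higher, and their sum went from 6.93 to 7.19 up to 7.17 to 7.27. The part of these genes in the results below was not tested. Array values cannot tell a change of transcript per cell from a change in the mix of cells, and RMA sets every array to nearly the same distribution.

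Most members were abundant transcripts. On average over the arrays, 33 of the 38 lay at or above the 85th percentile of all probe sets. A gene was tested where it exceeded the 40th percentile of the array in at least 3 arrays, which 37 members did. Psma8, the testis paralog of an alpha subunit, did not pass. It lay at percentile 35 on average and read 2.97 on each of the 3 arrays without LPS. Psma5, Psmb3, Psme2 and Psmd9 were tested but lay lower than the rest, at percentiles 54.7, 64, 74.5 and 76.2. Of these, Psma5 encodes an alpha ring subunit and Psmb3 a beta ring subunit, which the assembled core needs like their neighbours. Over the arrays, the probe set of Psma5 lay at percentiles 44.1 to 59.7 and that of Psmb3 at 60 to 67.4. These low levels limit what both show on change. The other probe set of Psma5 was dimmer still, at percentile 48.5, and gave 0.37 with LPS against -0.03 for the one used. Psmc2 also had another probe set, with a difference of 0.41 against 0.15 for the one used. Probe sets that list Psmd1 with Armc9, or Psme2 with other genes, were not used. RefSeq names a near copy of Psme2, Psme2b, so that values of Psme2 may include signal of that copy. RefSeq also names pseudogenes of Psma5, Psmb5, Psmb6 and Psmb7, and their part in these values was not tested.

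Promoters of 31 members were read from RefSeq (GRCm38.p6), as the 250 bases before the start site. 4 are shown, chosen by the results of their genes with LPS given below. Psmd10 rose most with LPS. Psmb5 was called higher and Psmb6 was not called, and the promoters of both hold the same short motif. Psmd9 holds a pair of motifs and was not called. The difference between Psmb5 and Psmb6 and the part of any motif in these values were not tested. Capitals mark matches on either strand.
Psmd10: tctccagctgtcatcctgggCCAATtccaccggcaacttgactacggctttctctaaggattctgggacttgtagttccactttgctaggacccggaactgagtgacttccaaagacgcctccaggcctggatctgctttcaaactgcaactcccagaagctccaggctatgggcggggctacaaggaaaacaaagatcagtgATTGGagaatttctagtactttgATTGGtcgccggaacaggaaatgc
Psmb5: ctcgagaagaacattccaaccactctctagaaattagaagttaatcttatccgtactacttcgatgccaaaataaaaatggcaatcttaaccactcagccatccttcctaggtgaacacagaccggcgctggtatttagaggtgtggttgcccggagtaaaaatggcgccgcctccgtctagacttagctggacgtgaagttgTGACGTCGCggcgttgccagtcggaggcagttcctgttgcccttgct
Psmb6: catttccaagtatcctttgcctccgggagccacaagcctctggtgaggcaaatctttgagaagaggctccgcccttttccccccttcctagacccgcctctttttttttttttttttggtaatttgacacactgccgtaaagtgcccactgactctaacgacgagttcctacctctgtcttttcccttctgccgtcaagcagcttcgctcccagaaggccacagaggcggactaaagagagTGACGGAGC
Psmd9: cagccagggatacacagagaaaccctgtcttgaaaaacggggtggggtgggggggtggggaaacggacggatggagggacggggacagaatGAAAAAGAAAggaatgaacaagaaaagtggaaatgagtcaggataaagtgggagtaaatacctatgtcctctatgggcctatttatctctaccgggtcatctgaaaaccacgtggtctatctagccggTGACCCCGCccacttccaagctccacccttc
The Psmd10 stretch is chrX:140956712-140956961 on the minus strand, with 3 matches to CCAAT, the NF-Y box. They begin 230, 47 and 24 bases before the start site. The Psmb5 stretch, chr14:54617996-54618245 on the minus strand, and that of Psmb6, chr11:70525107-70525356 on the plus strand, each hold 1 match to TGACNNNGC, beginning 47 and 9 bases before the start. TGACNNNGC is the core of the antioxidant response element, to which NRF1 and NRF2 bind. The Psmd9 stretch, chr5:123227940-123228189 on the plus strand, holds that core 31 bases before the start. It also holds GAAA, any 2 bases and GAAA again, the letters of an interferon-stimulated response element, 159 bases before it.

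Across the 34 promoters of these 31 members, TGACNNNGC was found in 5 members, Psmb5, Psmb6, Psmc6, Psmd9 and Psmd12. Some members had several promoters, and a match in any of them counted. The percentages of all promoters are shares of single promoters, a different unit. 10.16% of all 32851 RefSeq promoters of this length held it. CCAAT was found in 12 members against 33.85% of all promoters, and the GAAA pair in 3 members (Psmb3, Psmd4 and Psmd9) against 2.98%. TTCNNNGAA, the letters of an interferon-gamma activated site, was found in none, against 7.02%. Of 13 members with a promoter here that rose with LPS, 2 held TGACNNNGC, 5 held CCAAT and 0 held the GAAA pair. Of 18 that were not called, 3, 7 and 3 did. A match describes letters only and shows no binding.

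The first comparison asked what LPS did to these genes, with vehicle on both sides. Members were called higher with LPS in each part of the particle but the non-ATPase subunits of the base, and mostly by small amounts. That part differed in calls more than in size. Its 3 genes had a median log2 difference of 0.16, beside 0.18 in the alpha ring, the beta ring, the base ATPases and the lid. All 3 were higher in each experiment. 14 of the 37 tested members rose and none fell, while 13.5% of all tested genes were called higher and 16.3% lower (limma, Benjamini-Hochberg over all 15468 genes). The called changes ran from 1.16-fold to 1.98-fold, and 12 of the 14 were under 1.5-fold. Psmd10, a chaperone of the 19S base, and Psma6, an alpha ring subunit, were the ones above it. At an unadjusted p under 0.05 there were 19 members, all higher. The median log2 difference of the 37 members was 0.18, against 0.00021 over all genes tested. Without the chaperones and activators, 10 of 30 tested 20S and 19S subunits were called higher and 0 lower, with a median of 0.17.

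**Figure D1:**
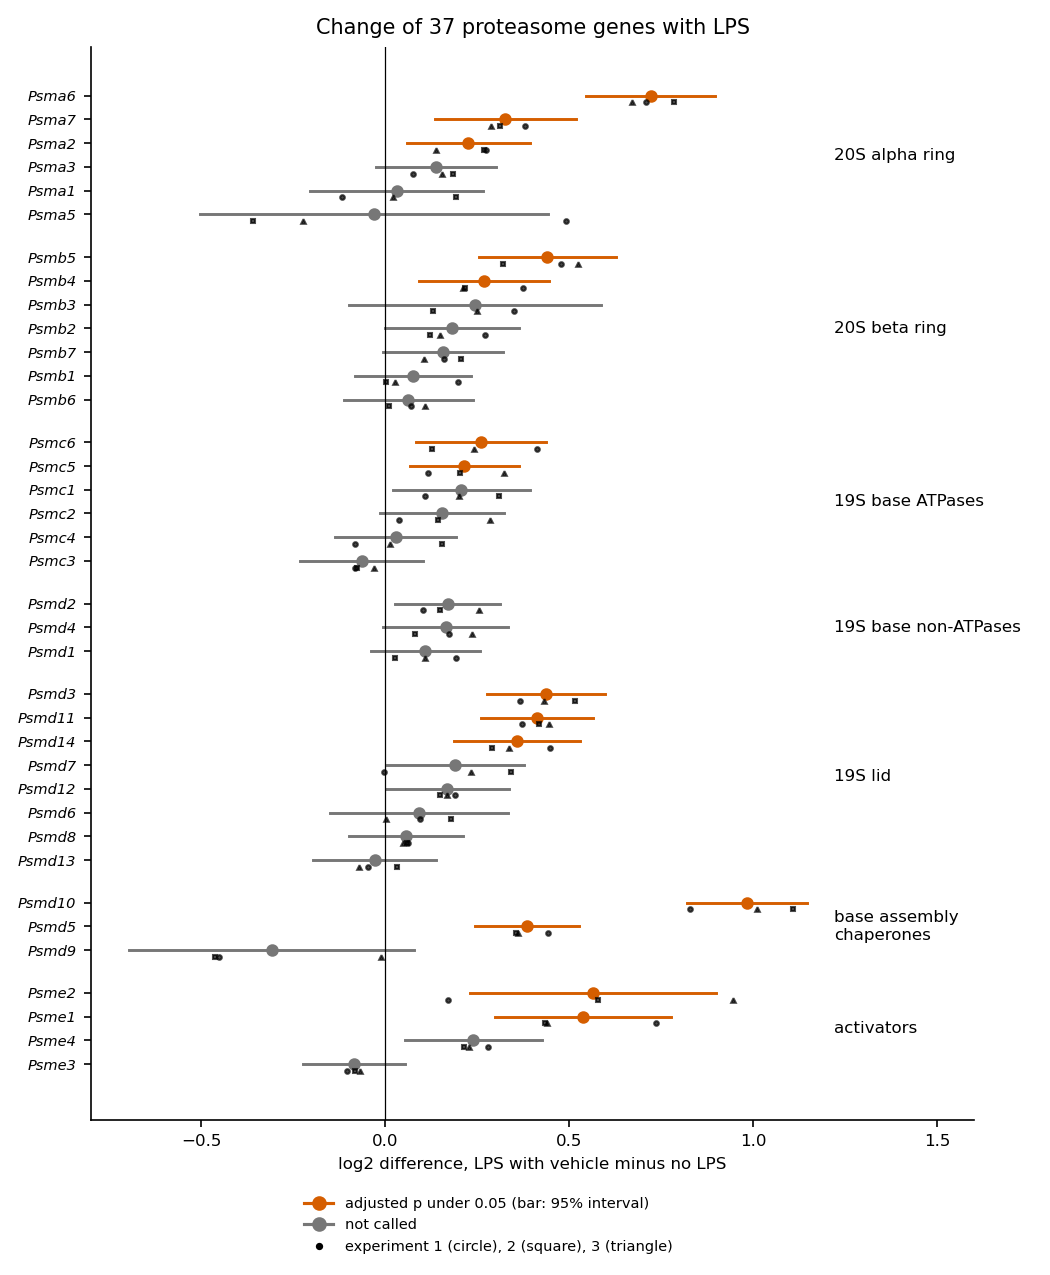
Log2 difference of each of the 37 tested proteasome genes between LPS with vehicle and no LPS (x axis), ordered by part of the particle. Large points and bars are the fitted difference and its 95% interval, orange where the adjusted p is under 0.05, and small black marks are the differences within each of the 3 experiments. 32 of 37 points lie above 0, and Psmd10 stands furthest to the right at 0.98.

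The direction was shared more widely than the calls. 32 of the 37 members, 86.5%, had a difference above 0, where 50% of all tested genes did. In each of the 3 experiments 29 members were higher with LPS and 3 were lower, against 27.6% and 30.2% of all genes. The 3 arrays with LPS and vehicle lay wholly above the 3 without in 21 members, 56.8%, and wholly below in 1. Of all genes, 19.1% and 22.2% were separated in this way. All 12 arrays given LPS lay above the 3 without in 18 members, and below them in 1, beside 12.3% and 16.1% of all genes. The median over members was 0.19, 0.18 and 0.21 in experiments 1, 2 and 3.

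These transcripts were measured tightly. The SD within groups, pooled over the 5 groups, had a median of 0.076 over the members and 0.159 over all tested genes. The median SE of the LPS difference was 0.0794 against 0.126. A change of a given size was therefore called more readily here than in a typical gene, and the part of this in the share called was not tested. With genes required to exceed the 60th percentile, 16 of 36 members were called higher, beside 19.5% of 10795 genes. RMA scaling also bears on differences this small: centring each array on its median over tested genes raised the members' median to 0.24 and that of all genes to 0.06. Psma5 and Psmd13, below 0 as deposited, both stood at 0.03 when centred. 20 members were then called higher and none lower, while over all genes 2534 were higher and 2082 lower, against 2089 and 2527 as deposited. When only the 6 arrays compared were fitted, 9 members were called higher, and 9 were without the replicate 2 array of LPS with vehicle.

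Of 6 tested alpha ring genes, 3 rose, with a median of 0.18. Psma6 read 8.97, 9.002 and 8.93 without LPS in the 3 experiments and 9.68, 9.79 and 9.60 with LPS and vehicle. The groups did not overlap, and the 12 arrays with LPS all lay above the 3 without. The difference was 0.72 (SE 0.0815, adjusted p = 1.02e-05 in limma), and 0.71, 0.78 and 0.67 within the experiments. Psma7 went from 9.67, 9.94 and 9.91 to 10.05, 10.25 and 10.20. Each experiment was higher with LPS, and the difference of 0.33 (SE 0.0888, adjusted p = 0.012 in limma) was lost without replicate 1 of no LPS (adjusted p = 0.0604) or replicate 2 of LPS with vehicle (0.0524). Psma2 gave 0.23 (adjusted p = 0.0409 in limma), the call nearest the threshold. It held only without replicate 3 of LPS with vehicle among the 6 arrays left out in turn, with adjusted p from 0.065 to 0.136 otherwise. Psma3 was at 0.14 and Psma1 at 0.03, neither called. Psma5, the dim one, read 3.605, 3.80 and 4.09 without LPS and 4.10, 3.44 and 3.87 with it. These ranges overlap, and the difference of -0.03 has an interval of -0.50 to 0.44.

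All 7 beta ring genes were above 0 with LPS in each experiment, and 2 of them rose. Their median was 0.18. The catalytic subunits had unequal estimates. Psmb5, which carries the chymotrypsin-like site, read 9.002, 9.07 and 9.02 without LPS and 9.48, 9.39 and 9.54 with LPS and vehicle. The groups are apart by more than their own spread, and the difference was 0.44 (95% interval 0.25 to 0.63, adjusted p = 0.00132 in limma). Psmb6, with the caspase-like site, read 10.12, 10.36 and 10.22 against 10.19, 10.37 and 10.32. These overlap, and the difference of 0.06 (-0.11 to 0.24) was not called (adjusted p = 0.64 in limma). Psmb7, with the trypsin-like site, read 10.02, 10.05 and 10.12 against 10.18, 10.26 and 10.23, every array with LPS and vehicle above every one without. Its difference of 0.16 (-0.01 to 0.32) was not called either (adjusted p = 0.151 in limma). The intervals of Psmb5 and Psmb7 overlap, and the difference between them was not tested.

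Among the beta subunits without a catalytic site, Psmb4 went from 8.77, 8.97 and 8.96 to 9.15, 9.19 and 9.17. It rose by 0.27 (SE 0.0825, adjusted p = 0.0239 in limma), a call lost without replicate 1 of no LPS (0.106) or without any one array of LPS with vehicle (0.0513 to 0.0639). Psmb1, Psmb2 and Psmb3 stood at 0.08, 0.18 and 0.24 and were not called. Psmb3, dim like Psma5, ran from 4.44 to 4.77 without LPS and from 4.62 to 5.01 with LPS and vehicle, which overlap.

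In the base of the 19S particle the changes were small on the probe sets used. Of its 6 ATPase genes, 2 rose, and of its 3 other tested subunits none did (limma; 1 of the 3 had an unadjusted p under 0.05, and none passed with experiment as a block). Psmc6 read 9.74, 9.94 and 9.80 without LPS and 10.15, 10.07 and 10.04 with LPS and vehicle. All 3 arrays with LPS exceeded the 3 without, by 0.26 (SE 0.082, adjusted p = 0.0275 in limma), and by 0.41, 0.13 and 0.24 in the experiments. Psmc5 went from 8.80, 8.77 and 8.70 to 8.91, 8.97 and 9.02, a difference of 0.21 (SE 0.0688, adjusted p = 0.0298 in limma). Both calls were lost in 4 of 6 fits that left out 1 array: Psmc6 without replicate 1 or 2 of LPS with vehicle or replicate 1 or 3 of no LPS (0.0544 to 0.105), and Psmc5 without replicate 2 or 3 of either group (0.0581 to 0.101). Psmc4, the brightest of the ATPase probe sets by percentile, barely moved: it read 11.21, 11.19 and 11.20 and 11.12, 11.34 and 11.21, a difference of 0.03 (95% interval -0.14 to 0.19). Psmc1, Psmc2 and Psmc3 stood at 0.21, 0.15 and -0.06. The probe set of Psmc2 that was not used, at percentile 87.2, went from a mean of 7.67 without LPS to 8.09 with LPS and vehicle. Its difference was 0.41.

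Psmd2 and Psmd1, the large scaffold subunits of the base, and Psmd4, a ubiquitin receptor, had differences of 0.17, 0.11 and 0.16. Psmd2 read 10.02, 9.98 and 9.89 without LPS and 10.12, 10.13 and 10.14 with LPS and vehicle, which do not overlap (adjusted p = 0.073 in limma). Psmd4 read 9.13, 9.34 and 9.16 against 9.30, 9.42 and 9.40, where experiment 2 without LPS was higher than experiment 1 with it. Psmd1 read 10.19, 10.33 and 10.29 against 10.39, 10.36 and 10.40, with adjusted p = 0.277 in limma. Psmd2 was called higher in 3 of the 14 alternative fits, with adjusted p from 0.0205 to 0.0354 in limma. Psmd4 was called in 1, with median centring (0.0401), and Psmd1 in 0.

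Among members of the 19S lid, 3 of the 8 tested genes rose. Psmd3, a structural lid subunit, read 8.93, 8.82 and 8.96 without LPS and 9.29, 9.34 and 9.39 with LPS and vehicle. It rose by 0.44 (SE 0.0745, adjusted p = 0.000415 in limma), with within-experiment values of 0.37, 0.52 and 0.43. Psmd11, which helps hold the lid to the core, went from 10.51, 10.53 and 10.47 to 10.88, 10.95 and 10.92, higher by 0.41 (SE 0.0706, adjusted p = 0.000439 in limma). Neither gene's groups came near each other. Psmd14, the deubiquitinase that cuts ubiquitin chains from the substrate, rose by 0.36 (SE 0.0794, adjusted p = 0.00322 in limma), from 7.80 ± 0.132 to 8.16 ± 0.0824 (SD, n = 3). The other 5 lid genes were not called. Psmd7, the catalytically inactive partner of Psmd14, stood at 0.19, Psmd12 at 0.17, Psmd6 at 0.09, Psmd8 at 0.06 and Psmd13 at -0.03. Psmd13 read 8.48, 8.46 and 8.47 and 8.44, 8.49 and 8.40, and its interval ran from -0.20 to 0.14.

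Of the 3 chaperones that escort the base during assembly and leave the finished particle, 2 rose. Psmd10, also called gankyrin, binds an ATPase of the base and is known as a regulator of the Rb and p53 pathways. It read 8.31, 8.22 and 8.18 without LPS and 9.14, 9.33 and 9.19 with LPS and vehicle. All 12 arrays with LPS lay well above the 3 without, and the groups are far apart for so small a spread. The change was 1.98-fold (0.98, SE 0.0758, adjusted p = 2.97e-07 in limma), and 0.83, 1.11 and 1.01 within the experiments. Psmd5 went from 9.28, 9.26 and 9.24 to 9.72, 9.61 and 9.61, higher by 0.39 (SE 0.0655, adjusted p = 0.000403 in limma). Psmd9 ran the other way without a call. It read 6.57, 6.48 and 6.56 without LPS and 6.12, 6.02 and 6.55 with it. Experiments 1 and 2 were lower with LPS and experiment 3 was level, with a difference of -0.31 (95% interval -0.70 to 0.08, adjusted p = 0.236 in limma).

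The activators were mixed. Psme1 and Psme2 encode the interferon-inducible PA28 alpha and beta subunits, which form 1 cap. Psme1 read 9.27, 9.58 and 9.62 without LPS and 10.01, 10.01 and 10.06 with LPS and vehicle. It rose by 0.54 (SE 0.111, adjusted p = 0.00195 in limma), most in experiment 1, where the array without LPS was lowest. Psme2 read 5.83, 5.74 and 5.47 against 6.00, 6.32 and 6.42, a rise of 0.56 (SE 0.155, adjusted p = 0.0128 in limma). The groups did not overlap, yet the step was uneven, 0.17, 0.58 and 0.95 in the experiments. The Psme2 call was lost without the replicate 3 array of no LPS (adjusted p = 0.063) or of LPS with vehicle (0.0579).

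Psme3 encodes PA28 gamma, a nuclear cap that is not inducible by interferon. It read 8.82, 8.79 and 8.83 without LPS and 8.72, 8.71 and 8.76 with LPS and vehicle. All 3 arrays with LPS and vehicle lay below the 3 without, and it was the member whose 12 arrays with LPS all lay below. The difference was only -0.09 (95% interval -0.22 to 0.05) and was not called (adjusted p = 0.376 in limma). Psme4, the PA200 activator, read 8.69, 8.76 and 8.60 against 8.97, 8.98 and 8.82, a difference of 0.24 (SE 0.0865). It missed the threshold narrowly (adjusted p = 0.0517 in limma) but had adjusted p = 0.0357 once experiment was a block in limma, which brings the rises to 15 of 37 beside 15.6% of all genes. The block changed no other member's call.

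**Figure D2:**
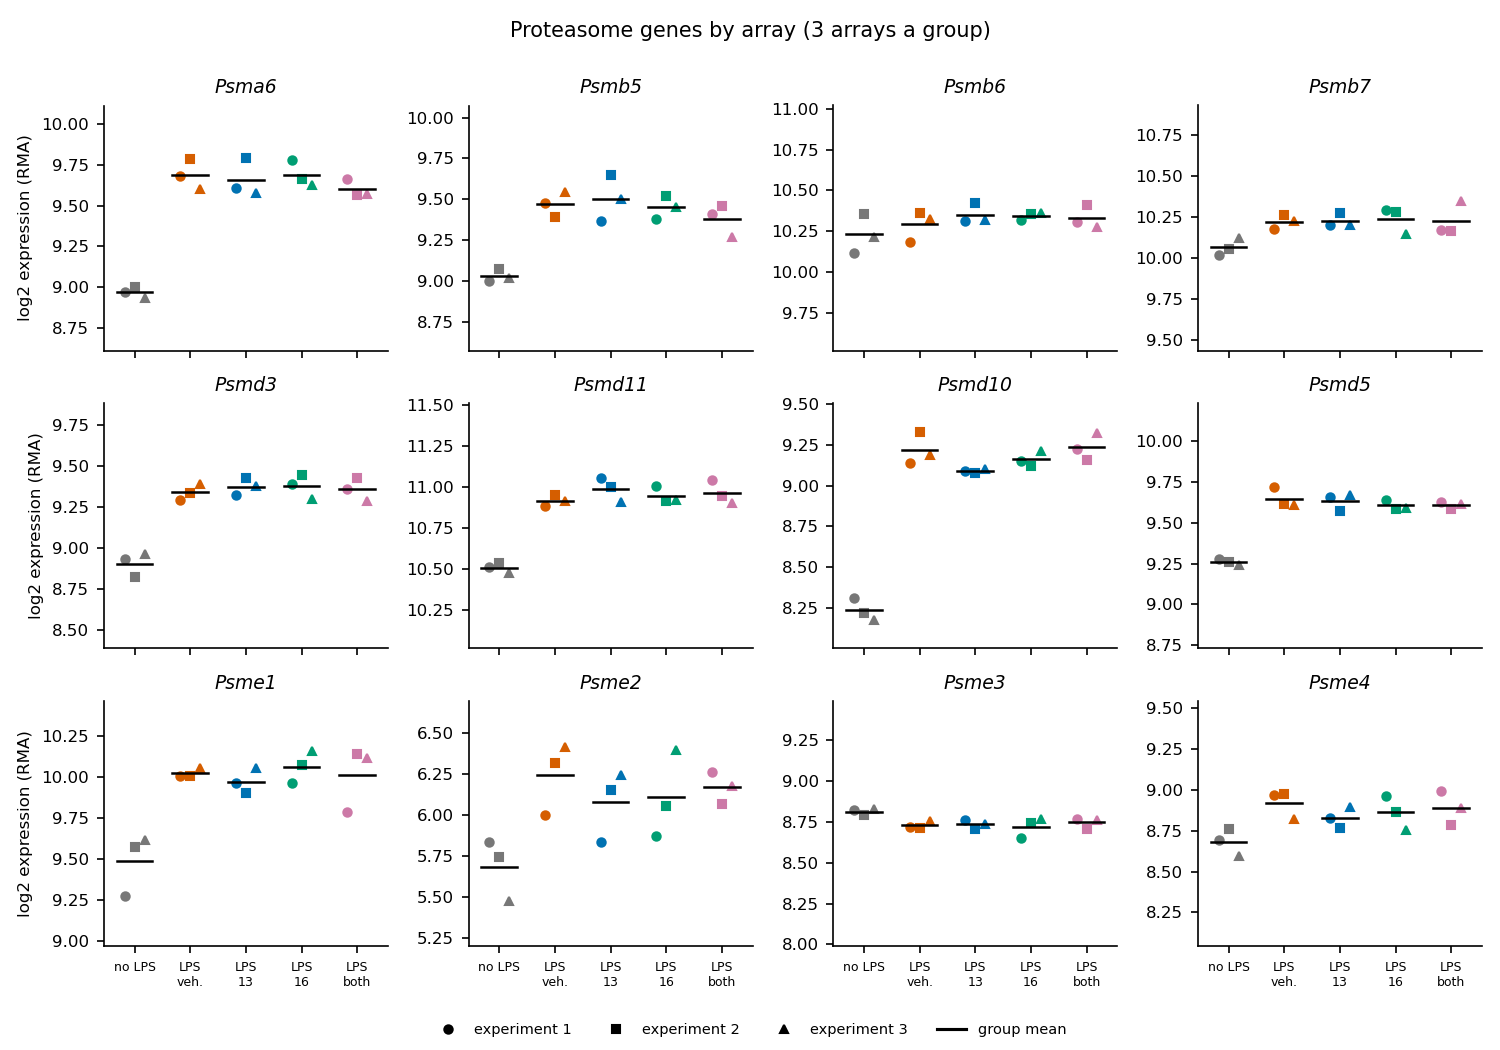
Log2 expression (y axis) of 12 proteasome genes on each of the 15 arrays, by group (x axis: no LPS, then LPS with vehicle, with 13-HDHEA, with 16-HDHEA and with both). Symbols mark the experiment, black lines the mean of 3 arrays, and each panel spans the same 1.5 log2 units. Psmd10 and Psma6 step up in every LPS group, Psmb6 overlaps between no LPS and LPS with vehicle, and Psme3 lies slightly lower with LPS.

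Of 8 members the call held in each of the 14 alternative fits: Psma6, Psmb5, Psmd3, Psmd5, Psmd10, Psmd11, Psmd14 and Psme1. The 6 others, Psma2, Psma7, Psmb4, Psmc5, Psmc6 and Psme2, each lost it in at least 1 fit without a single array. All of these but Psme2 also lost it when only the 6 arrays compared were fitted, with adjusted p from 0.064 to 0.106. The 23 members not called had intervals between -0.70 and 0.58, and 18 of them were above 0.

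Other genes of the pathway came from a list of 39, of which 31 were tested. Of these 7 rose and 4 fell, beside 13.5% and 16.3% of all tested genes. Their median was 0.08. The immunoproteasome subunits, which take the catalytic places of Psmb6, Psmb7 and Psmb5, all rose: Psmb9 by 0.70, Psmb10 by 0.81 and Psmb8 by 0.64 (adjusted p = 0.00016, 2.57e-05 and 0.000619 in limma). Psmb10 read 8.79, 8.97 and 8.99 without LPS and 9.59, 9.76 and 9.83 with LPS and vehicle. Pomp, which assembles both kinds of core, stood at 0.21 and was not called (adjusted p = 0.236 in limma). The largest rise was that of Ngly1, a cytosolic deglycosylase that activates the proteasome gene regulator NRF1. It went from 6.56, 6.44 and 6.45 to 7.52, 7.39 and 7.39, higher by 0.95 (SE 0.118, adjusted p = 2.62e-05 in limma).

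Of the rest that rose, Nfe2l1, which encodes NRF1 itself, stood at 0.69, the zinc finger gene Zfand5 at 0.63 and Akirin2, which helps import proteasomes into the nucleus, at 0.38. These 3 were chosen after their values were seen. Those that fell were Uchl5, a deubiquitinase bound to the base, at -0.43 (adjusted p = 0.000502 in limma), the shuttle factor gene Ubqln2 at -0.37, Nfe2l2, which encodes NRF2, at -0.28, and the assembly chaperone gene Psmg2 at -0.28. The Ubqln2 call was lost in 5 of 6 fits that left out 1 array (all but replicate 1 of LPS with vehicle, 0.0553 to 0.116), and with median centring (0.0755). The Nfe2l2 call was lost without replicate 3 of LPS with vehicle (0.0518) and with only the 6 arrays compared (0.066). With experiment as a block, Midn at -0.39 and Ubqln4 at -0.29 also passed, which makes 6 that fell, beside 18.7% of all genes called lower with the block.

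The next comparisons asked whether HDHEAs changed these genes in cells given LPS. None of the 37 members was called higher or lower in any of the treatments (13-HDHEA, 16-HDHEA, the mixture), in limma or with experiment as a block, and none had an unadjusted p under 0.05. Over all genes, 0% were called higher in each, and 0.00646%, 1 gene, was called lower with 13-HDHEA and 0% in the others. At an unadjusted p under 0.05 there were 660, 460 and 539 genes. The 3 comparisons share the arrays of LPS with vehicle. In 30 of the 37 tested members the means of all 4 LPS groups exceeded that of cells without LPS, where 35.4% of all tested genes did so. All 4 means are set against the same 3 arrays without LPS. Among the 14 members that rose with LPS, the highest and lowest of the 4 LPS group means were a median of 0.08 and at most 0.17 apart.

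**Figure D3:**
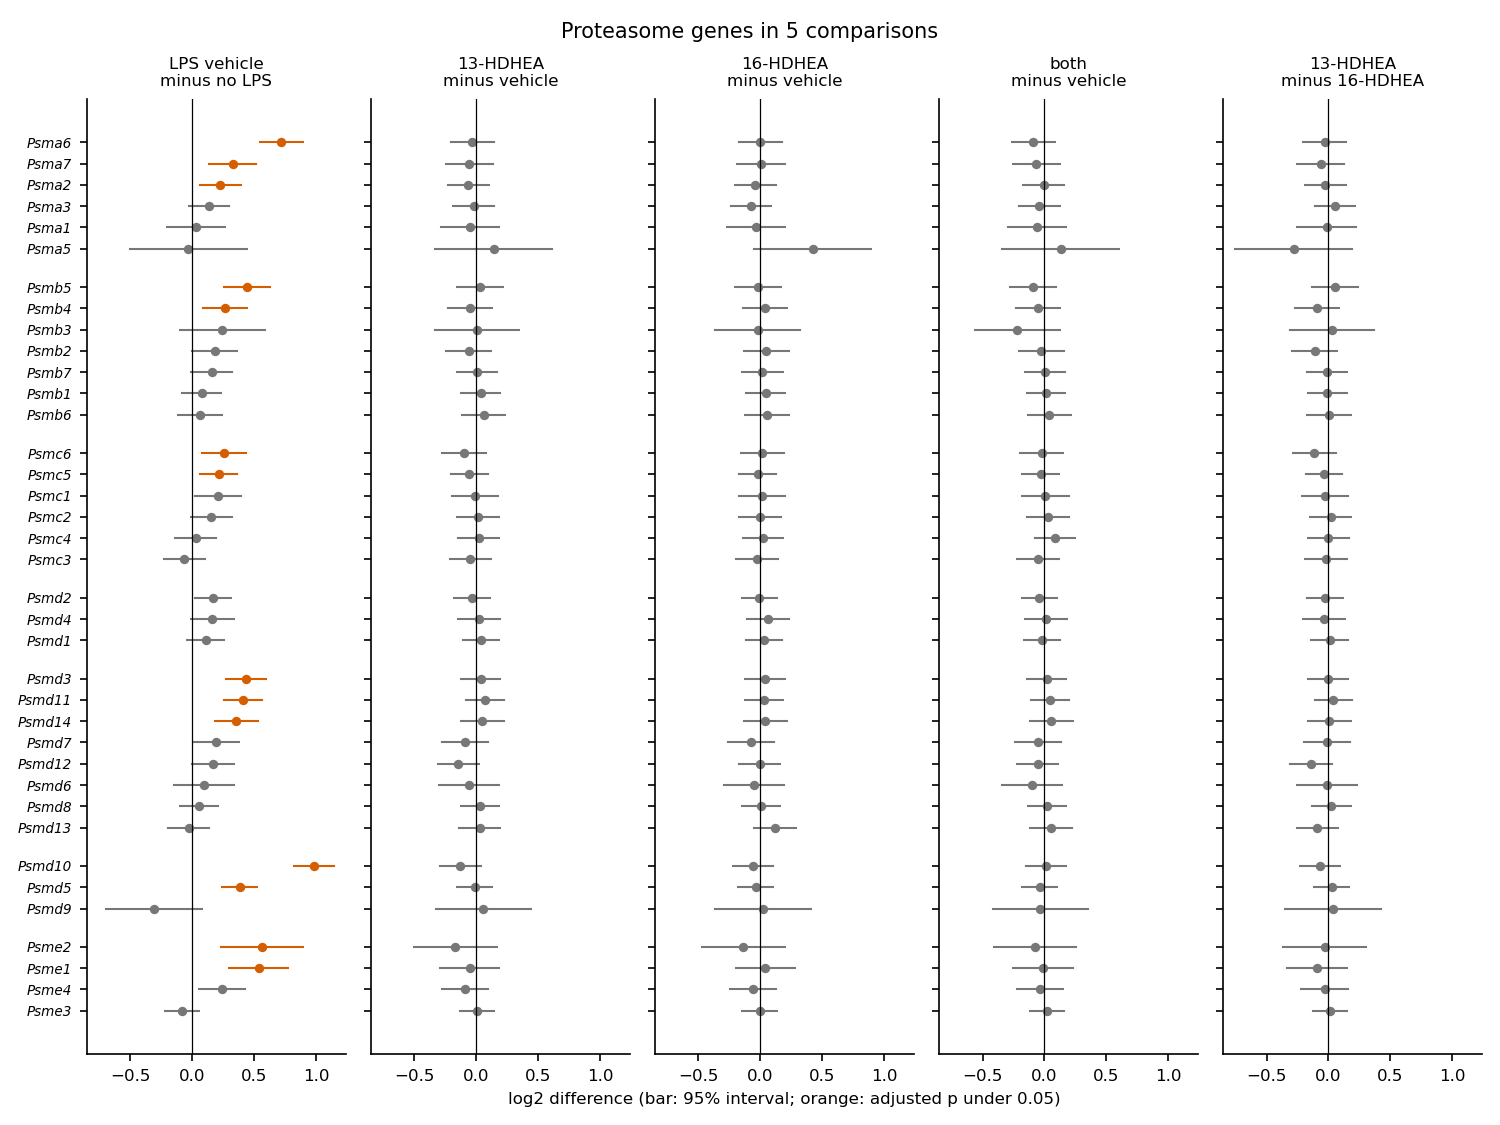
Log2 difference (x axis) and 95% interval of the 37 tested proteasome genes (rows, by part of the particle) in 5 comparisons, with adjusted p under 0.05 in orange. In the first panel 14 genes are orange, and in the 4 panels on HDHEAs none is, with most points within 0.15 of 0.

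With 13-HDHEA the members' differences from vehicle ran from -0.17 to 0.14, with a median of -0.01, as over all genes. Those with the smallest p were all lower. Psmd12, a lid subunit, read 10.31, 10.32 and 10.17 with vehicle and 10.18, 10.13 and 10.06 with 13-HDHEA, with within-experiment differences of -0.13, -0.20 and -0.11. The difference was -0.14 (95% interval -0.31 to 0.02, adjusted p = 1 in limma). Psmd10 read 9.14, 9.33 and 9.19 with vehicle and 9.09, 9.08 and 9.10 with 13-HDHEA, and Psmc6 10.15, 10.07 and 10.04 and 10.03, 9.99 and 9.95. In both genes the arrays with 13-HDHEA lay below those with vehicle, at differences of -0.13 (-0.29 to 0.03) and -0.10 (-0.27 to 0.08). Arrays were separated in this way in 3 of the 37 members and in 712 of all 15468 tested genes. They were separated upwards in 0 members and 515 genes. Neither passed (adjusted p = 1 in limma for each).

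With 16-HDHEA the differences ran from -0.14 to 0.42, with a median of 0.01. The largest was that of the dim Psma5, 4.27, 4.20 and 4.21 against 4.10, 3.44 and 3.87 with vehicle. It was higher in each experiment, by 0.18, 0.76 and 0.34, but with an interval of -0.05 to 0.90 it was not called (adjusted p = 1 in limma). Psmd13 read 8.62, 8.53 and 8.52 with 16-HDHEA, a difference of 0.12 (-0.05 to 0.28), and Psma3 read 10.09, 10.08 and 10.11 against 10.09, 10.25 and 10.16, a difference of -0.08 (-0.24 to 0.09).

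With 2.5 µM of each compound, the differences ran from -0.22 to 0.13, with a median of -0.02. Psmb3 read 4.67, 4.79 and 4.31 against 4.79, 4.62 and 5.01 with vehicle, and its difference of -0.22 (-0.56 to 0.12) was uneven, -0.12, 0.17 and -0.70 within the experiments. Psmc4 stood at 0.09 (-0.08 to 0.25), with arrays at 11.24, 11.32 and 11.37, and Psma6 at -0.09 (-0.27 to 0.09), with arrays at 9.66, 9.56 and 9.57. The mean of the 3 HDHEA treatments gave differences from vehicle between -0.13 and 0.23, with Psma5 (0.23), Psmd12 (-0.07) and Psmd13 (0.07) at the smallest p, and no member called in limma (0 at an unadjusted p under 0.05, 0 with the block, and 0% of all genes in either direction, 586 at an unadjusted p under 0.05).

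The isomers were compared at the matched dose of 5.0 µM, 1 pair of compounds, with 13-HDHEA minus 16-HDHEA as the direction. No member was called in limma or with the block, and none had an unadjusted p under 0.05 (0% of all genes were higher and 0.00646% lower, with 480 at an unadjusted p under 0.05). Differences ran from -0.28 to 0.06, with a median of -0.02 against -0.01 over all genes. In 4 of the 37 members the arrays with 13-HDHEA lay wholly below those with 16-HDHEA, beside 554 of all 15468 tested genes. They lay wholly above in 0 members and 466 genes. Psmd12 was lower with 13-HDHEA in each experiment, 10.18, 10.13 and 10.06 against 10.34, 10.26 and 10.19, with no overlap. Its difference was -0.14 (-0.31 to 0.03, adjusted p = 1 in limma). Psmc6 stood at -0.11 (-0.29 to 0.06), from 10.03, 9.99 and 9.95 against 10.22, 10.07 and 10.01, and Psmb2 at -0.11 (-0.29 to 0.07), from 9.01, 9.08 and 9.03 against 9.13, 9.18 and 9.13. Over all members the intervals reached from -0.76 to 0.42, the ends being those of Psma5 and Psmd9, which are among the dim members. Absence of a call does not show that the isomers act alike.

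The catalytic and activator genes can be followed over the 4 LPS groups in the order vehicle, 13-HDHEA, 16-HDHEA and both. Psmb5 had means of 9.47, 9.50, 9.45 and 9.38, against 9.03 without LPS. Psmb6 had 10.29, 10.35, 10.35 and 10.33 against 10.23, and Psmb7 10.22, 10.23, 10.24 and 10.23 against 10.07. For each of these genes the arrays of the 4 LPS groups overlapped. Psme1 had 10.03, 9.97, 10.07 and 10.01 against 9.49. Psme2 had 6.25 ± 0.218, 6.08 ± 0.217, 6.11 ± 0.267 and 6.17 ± 0.0978 (SD, n = 3) against 5.68 ± 0.187. Psme3 had 8.73, 8.73, 8.72 and 8.75 against 8.81, and Psme4 8.92, 8.83, 8.86 and 8.89 against 8.68.

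Experiments differed in both directions. As deviations from the group means, averaged over the 5 groups, the members had a median of -0.02 in experiment 1, 0.02 in experiment 2 and -0.00455 in experiment 3. Single members ranged from -0.13 (Psmd9, experiment 1) to 0.11 (Psma5, experiment 3), and both of these are among the dim members. In experiment 2, 27 members lay above 0 and 10 below, where 49.5% of all tested genes lay above, and in experiment 1, 13 lay above and 24 below, where 51.2% did. The steadiest member was Psme3, with a pooled SD of 0.0364, and the least steady was Psma5, at 0.303.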

How the data were processed

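Per the submitters' processing notes, the authors ran RMA on arrays of labelled total RNA (100 ng) and deposited log2 values for each probe set. No source used here names the RMA version or chip definition. Of 41345 probe sets, 23521 had 1 symbol in the platform table, giving 22180 genes. All 38 members matched RefSeq by gene identifier. Genes above the array's 40th percentile on at least 3 arrays (15468) entered limma (version 3.58.1, R version 4.3.3; lmFit, eBayes) as 1 model of 5 group means over 15 arrays. It had 10 residual and 3.59 prior degrees of freedom. Tests were two-sided, adjusted by Benjamini-Hochberg over all genes, with calls under 0.05 and 95% intervals. Precision is limited by having 3 arrays a group.

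Groups and replicate numbers came from the sample titles. The labels give same-numbered arrays 1 experiment identifier. Their deviations from group means correlated at 0.0835 to 0.404 over 30 pairs, above 0.1 in 28, and for all 15 arrays the best correlation was with the same number. A fit blocking on experiment (8 residual degrees of freedom) was an alternative, with scaling, filter, probe choice, moderation and left-out arrays. Each p-value sets a group difference against the spread between these cultures. In the reported fit, without a block, that spread includes differences between experiments.

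Members and gene lists were chosen with earlier results of these data known. Named were, in each part of the particle, the genes with the 2 smallest and the largest p for LPS, the 3 with the smallest p in each HDHEA comparison, Psmb5 to Psmb7 and Psme1 to Psme4. From the other pathway genes, Psmb8, Psmb9, Psmb10, Pomp and up to 3 a direction with the largest called change were named. The fit was tested on simulated data. Protein sequences were not used here.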

Additional observations from a re-analysis of the deposited data

How the results depend on the processing

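For LPS against no LPS, the count of members called higher was 14 as reported and between 9 and 20 over all alternatives, and none was called lower in any of them. It was 9 when only the 6 arrays compared were fitted, which leaves fewer arrays to estimate the spread, and 5 calls were lost there. Leaving out 1 array in turn gave 9 to 14, the lowest without replicate 2 of LPS with vehicle. The other counts were 20 with median centring, 14 with repeated quantile normalization, 12 without a filter, 16 with the 60th percentile filter, 17 with trend and robust moderation, 15 with probe sets averaged and 15 with experiment as a replicate block. No named gene called in the reported fit changed sign. The members' median went from 0.14 to 0.21 when single arrays were left out and to 0.24 with median centring. With HDHEAs, 0 members were called in either direction under every alternative, the block and each left-out array included, in the 5 comparisons. Psma5 and Psmb3 lay lower on the array than the other tested members, at mean percentiles 54.7 and 64, which limits what their values show.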
